A study of Mus musculus with 6 samples.

Results

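The genes described here are the receptor complex of the phosphate hormone FGF23 and the cellular phosphate transporters: the co-receptors Kl and Klb, the ligand Fgf23, the FGF receptors Fgfr1, Fgfr2, Fgfr3 and Fgfr4, and the phosphate transporters Slc20a1, Slc20a2 and Xpr1. All probe sets that the platform annotation assigns to 1 of these 10 symbols and to no other were taken, which gave 30 probe sets among 45037 tested. Expression was measured on Affymetrix mouse arrays in aortic roots, made up of valve leaflets, annulus and adjoining ascending aorta. Klotho-deficient mice were homozygous for a mutant Klotho allele, and the comparison group was homozygous wild type at Klotho. Mice of both groups were C57BL/6J albino and aged 6.0 to 6.5 weeks. Every RNA sample was a pool of 3 mice, and each genotype had 3 pools, from 9 mice, on 3 arrays. The sources used here do not name the mutant allele or say where it lies relative to the probes. The comparison asks whether transcripts differ in the root when Klotho is mutated in the whole animal.

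FGF23 is a hormone made mainly by bone cells that makes the kidney excrete phosphate and lowers active vitamin D. It signals through FGF receptors, chiefly the product of Fgfr1, when klotho, a membrane protein of kidney tubule and parathyroid cells, is bound beside the receptor. Without klotho, phosphate and vitamin D rise in blood and vessels calcify. Smooth muscle and valve cells take up phosphate through the sodium-coupled carriers PiT-1 and PiT-2, encoded by Slc20a1 and Slc20a2, and XPR1 exports it.

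Across the arrays, correlations of log2 signals over the 12150 genes above the controls were 0.949 to 0.969 among klotho-deficient and 0.967 to 0.984 among wild-type arrays. These are correlations across genes, which are not independent replicates. Markers of smooth muscle, of valve and fibroblast cells, of endothelium and of heart muscle were all above the controls on all 6 arrays, with 6 of 6 genes for each type. The 3 measured Y-linked genes summed to 8465.7, 115 and 124.2 on klotho-deficient replicates 1, 2 and 3, against 7191.8 to 9156.4 on the wild-type arrays, so klotho-deficient replicates 2 and 3 held little or no male tissue. The 6 chondrocyte markers summed to 5418.4, 14180.8 and 30402.7 on the klotho-deficient arrays, against 7655.4 to 8843.8 on the wild-type arrays. Wild-type replicate 3 stood apart in a measure of RNA quality, with a Gapdh 3′ signal 7.18 times its 5′ signal. This ratio was between 3.23 and 4.08 on each klotho-deficient array or other wild-type array. The 6 endothelial markers summed to 40354.2 on wild-type replicate 3, against 19180.5 to 23533.5 on klotho-deficient arrays. On wild-type replicates 1 and 2 they summed to 23216.6 and 23496.9. The 6 epithelial and mesothelial markers also had their largest sum on wild-type replicate 3, 51268.8.

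None of the 30 probe sets passed in limma at an adjusted p of 0.05, and neither did any of the 45037 probe sets tested, which is 0% in each direction. At an unadjusted p under 0.05 there were 2 member probe sets, both with the higher mean in klotho-deficient roots (6.67%). These were the Fgf23 probe set and the dimmest Fgfr2 probe set, and both lay under the highest control on every array. Of all probe sets, 2.86% were higher at that limit, 2.5% lower and 5.36% either. Over the 30 probe sets the klotho-deficient mean was higher for 13 and lower for 17, with a median difference of -0.05 on the log2 scale, against 0.01 over all probe sets. The lowest adjusted p of a member was 0.915. In whole tissue, fewer cells of one type and less RNA in each cell cannot be told apart.

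Level was judged against 27 probe sets for Bacillus transcripts that mouse tissue lacks, whose highest signal on any array was 161.8. Of the member probe sets, 19 of 30 exceeded that signal on all 6 arrays (63.3%, against 62.4% of all probe sets), 8 did so on none and 3 on some. The 19 belonged to 6 genes, Fgfr1, Fgfr2, Fgfr3, Slc20a1, Slc20a2 and Xpr1. No probe set of Kl, Klb, Fgf23 or Fgfr4 exceeded it on all arrays. Signals of different probe sets are not on one scale, so each is set against the controls and not against other genes.

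**Figure D1:**
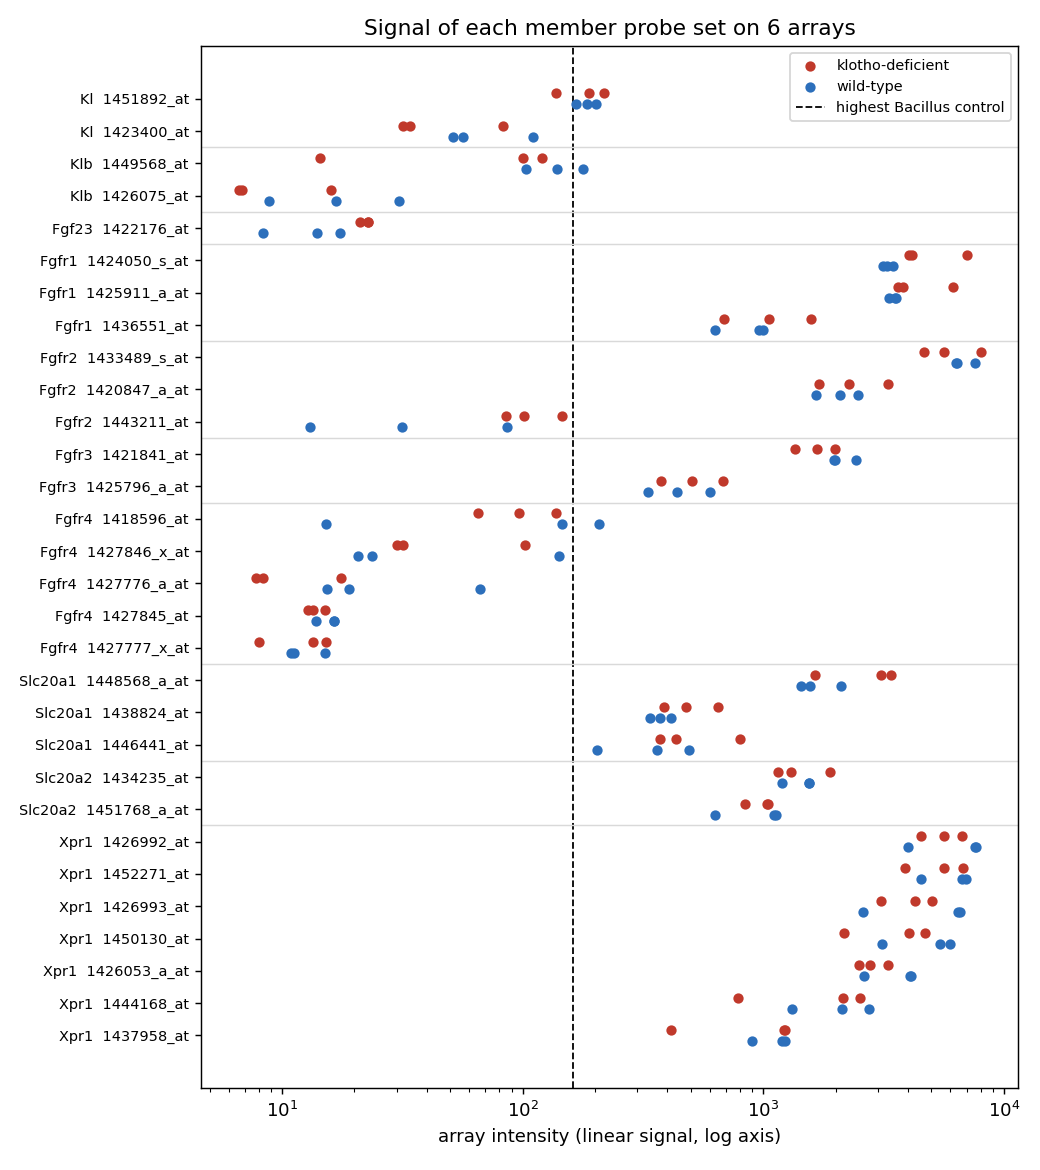
Signal of each of the 30 probe sets (rows, grouped by gene) on 3 klotho-deficient arrays (red, upper points of each row) and 3 wild-type arrays (blue, lower points), in linear intensity on a log axis, with the highest Bacillus control at 161.8 as a dashed line. Every point of Fgfr1, Fgfr3, Slc20a1, Slc20a2 and Xpr1 lies right of the line, as do those of Fgfr2 other than probe set 1443211_at, while points of Kl, Klb, Fgf23 and Fgfr4 lie to its left or, on some arrays, just right of it, up to 217.4.

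Kl, the mutated gene, gave signals near the highest control in both genotypes. Its brighter probe set, 1451892_at, read 138.3, 217.4 and 189.1 on klotho-deficient arrays and 166.7, 184.7 and 202.1 on wild-type arrays. The wild-type values lie inside the klotho-deficient range. The difference was -0.04 ± 0.25 (SE; klotho-deficient minus wild type, log2; 95% interval -0.64 to 0.55; limma adjusted p = 0.995). Its means were only 1.12 times the highest control in klotho-deficient roots and 1.14 times in wild type, so this difference sets no limit on a change of the transcript. The other probe set, 1423400_at, read 31.8, 34.2 and 83 in klotho-deficient against 56.5, 110.3 and 51.2 in wild-type roots, below the highest control on every array. On 1451892_at all 3 wild-type arrays and 2 of 3 klotho-deficient arrays exceeded the highest control, by a narrow margin. Since Kl lay this near the control level in wild type as well, it gives no check of the genotype labels. Of 6 kidney tubule markers, Umod, Slc12a1, Slc12a3 and Calb1 were at or near the control level, with Umod at 82.7, 78.4 and 53.3 in klotho-deficient roots, against 120.6, 163.4 and 63.5 in wild type. Lrp2 and Aqp2 exceeded the highest control on all arrays. Lrp2 read 358.7, 334.1 and 198.7 in klotho-deficient roots, against 417.8, 471 and 578.6 in wild type, without overlap, while the other markers of this list overlapped. The whole list, most of whose signal was Lrp2 and Aqp2, summed to 755 to 1050.3 in klotho-deficient roots, against 1034.6 to 1345.3 in wild type. Pth, the parathyroid hormone gene, read 16.6 to 88.7 in klotho-deficient roots, against 22.4 to 24.2 in wild type. Of the other parathyroid markers measured, Casr exceeded the highest control on 1 array, klotho-deficient replicate 3, at 198.3. Chga did so on 2, klotho-deficient replicate 2 at 253.2 and wild-type replicate 3 at 162.2.

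The Kl promoter, shown because Kl is the mutated gene, is given by RefSeq (GRCm38.p6) at chr5:150952357-150952656 on the plus strand, 250 bases before to 50 bases after the start. Capitals mark CpG dinucleotides.
Kl: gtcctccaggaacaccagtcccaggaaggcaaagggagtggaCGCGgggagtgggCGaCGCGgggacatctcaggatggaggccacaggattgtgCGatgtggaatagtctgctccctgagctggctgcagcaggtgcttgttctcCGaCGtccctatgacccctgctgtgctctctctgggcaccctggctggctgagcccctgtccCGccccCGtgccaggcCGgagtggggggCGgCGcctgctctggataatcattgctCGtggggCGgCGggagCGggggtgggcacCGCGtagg
It holds 19 CpG in 300 bases, and 71.9% of the 32851 promoters in the table hold fewer. On both strands it has 3 copies of the GC box GGGCGG, present in 35.7% of all promoters, and neither a TATA box (TATAAA, in 13.6%) nor an E-box (CACGTG, in 7.15%). These are matches of letters in 1 window, and 8 of the 10 genes matched the table.

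Klb encodes the klotho relative that serves as co-receptor for the metabolic hormone FGF21. Its probe set 1449568_at read 100.5, 120.6 and 14.4 in klotho-deficient roots, against 139.5, 178.6 and 103.6 in wild type, with 1 wild-type array above the highest control. Probe set 1426075_at read 6.6 to 16 in klotho-deficient roots, against 8.8 to 30.5 in wild type. The genotypes overlapped at both probe sets, and no fold is given at this level.

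Fgf23 had 1 probe set, 1422176_at, at 22.8, 22.8 and 21.1 in klotho-deficient roots, against 14, 8.3 and 17.5 in wild type. The genotypes did not overlap, but every value lay under the median control signal of 26.35, so no level of the hormone transcript was measured in either genotype. Of markers of osteocytes, the bone cells that make FGF23, Mepe was under the highest control on all arrays and Dmp1 exceeded it on 1, klotho-deficient replicate 3. Sost and Phex were above it on all 6. Sost read 2350.8, 1442.8 and 2554.6 in klotho-deficient roots, against 3956.7, 4615.2 and 3094.6 in wild type, without overlap, while the other 3 overlapped between genotypes. The 4 markers, most of whose signal was Sost, summed to 1881.2 to 3532.2 in klotho-deficient roots, against 3616.4 to 5745.6 in wild type.

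Fgfr1 is the receptor that klotho most often joins and is widely made by mesenchymal cells. Its probe set 1424050_s_at read 4141.6, 4052.9 and 7050.8 in klotho-deficient roots, against 3448.5, 3133.5 and 3272.6 in wild type. Every klotho-deficient array lay above every wild-type array, and replicate 3 was far above the other two. The difference was 0.58 ± 0.28 (95% interval -0.09 to 1.26; limma adjusted p = 0.93). The limma unadjusted p was 0.0801, and it was 0.0329 with a trended and robust prior and 0.0463 with an offset of 100. No other setting took it under 0.05. It was 0.153 with median centring and 0.149 without klotho-deficient replicate 3. Probe set 1425911_a_at read 3619.1, 3795.8 and 6146 in klotho-deficient roots, against 3338.4, 3537 and 3569.9 in wild type, again without overlap, with a difference of 0.33 ± 0.27. These 2 were the probe sets above control without overlap, and over all 30 there were 3 with Fgf23 (10%). Of all probe sets, 5.96% were higher without overlap, 5.71% lower and 11.7% either. The third Fgfr1 probe set, 1436551_at, overlapped, at 689.4, 1051.9 and 1573.5 in klotho-deficient roots, against 994.7, 961.6 and 628.5 in wild type.

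All 3 Fgfr1 probe sets were highest on klotho-deficient replicate 3. Without that array the differences were 0.32 for 1424050_s_at, 0.09 for 1425911_a_at and 0.01 for 1436551_at. With the Y-linked level in the fit they were 0.33, 0.05 and -0.24. Among klotho-deficient arrays that fit rests mainly on replicate 1, which alone had Y-linked signal at the wild-type level. Klotho-deficient replicate 3 also had the largest sum of chondrocyte markers, 30402.7, of which Comp, a cartilage matrix protein, gave 16900.9. Acan, Col2a1 and Cnmd were also highest there, at 6412.6, 4225.9 and 1061.1. Hapln1, at 1782, was below wild-type replicates 1 and 2, and Matn1, at 20.2, had its lowest signal there. Klotho-deficient replicate 1 had the smallest sum of all 6 arrays, 5418.4, yet at 1424050_s_at its 4141.6 was above every wild-type array. Replicate 2, with a sum of 14180.8, read 4052.9 at that probe set. At the other Fgfr1 probe sets replicate 2 read above replicate 1. The part of cartilage content in the Fgfr1 signal was not tested.

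The genes most like Fgfr1 probe set 1424050_s_at over the 6 arrays were Klhl20 (Pearson r = 0.996), Brap (0.991) and B3gntl1 (0.991), out of 12149 genes above control, of which 46 had r over 0.95. Klhl20 read 1215.5, 1185.1 and 1529.5 in klotho-deficient roots, against 1098.2, 1039.4 and 1097 in wild type. The points share their arrays and the correlations are descriptions only.

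Fgfr2 is a receptor of epithelial and mesenchymal cells whose splice forms bind different FGFs. Its probe set 1433489_s_at read 4663.4, 5617.4 and 8034.3 in klotho-deficient roots, against 6328.9, 7571.7 and 6392.7 in wild type. The klotho-deficient range enclosed the wild-type range (-0.18 ± 0.27). Probe set 1420847_a_at read 1698.9, 2268.7 and 3296.9 in klotho-deficient roots, against 2482.3, 2081.3 and 1653.4 in wild type (0.19 ± 0.32). As with Fgfr1, both were highest of all 6 arrays on klotho-deficient replicate 3. Of 6 epithelial and mesothelial markers, Upk3b and Krt19 had every klotho-deficient signal under every wild-type signal, and Krt18 had the higher mean in klotho-deficient roots, at 5646, against 4385 in wild type. Their sum, most of it Upk3b, was 20881.6 to 33566.9 in klotho-deficient roots, against 30137.8 to 51268.8 in wild type, and the part of such cells in the Fgfr2 signal was not tested. Probe set 1443211_at stayed under the highest control, at 85, 145.1 and 101.1 in klotho-deficient roots, against 31.5, 13.1 and 86.3 in wild type.

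Fgfr3 is the receptor that restrains growth of cartilage. Probe set 1421841_at read 1357.4, 1665.6 and 1981.4 in klotho-deficient roots, against 1983.2, 2434 and 1970.6 in wild type. The genotypes overlapped only through klotho-deficient replicate 3, and the difference was -0.36 ± 0.23 (95% interval -0.93 to 0.21; limma adjusted p = 0.943). With array weights it was -0.54 (limma unadjusted p = 0.0328, adjusted p = 0.421). Probe set 1425796_a_at did not share this direction, at 374.9, 679.9 and 507.9 in klotho-deficient roots, against 332.5, 599.5 and 437.6 in wild type (0.19 ± 0.33). Across the 6 arrays the 2 probe sets had r = 0.274.

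Fgfr4, a receptor known mainly from liver, had 5 probe sets, none of them above the highest control on all arrays of a genotype. Probe set 1418596_at read 65.5, 96.6 and 137.6 in klotho-deficient roots, against 146.1, 15.3 and 208.6 in wild type, the last being the 1 value above it. The other 4 ran from 7.8 to 102.2 in klotho-deficient roots, against from 10.9 to 141.2 in wild type. Fgfr4 was therefore not measurably above the controls in either genotype.

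The promoters of Fgfr2, which had 2 probe sets above control, and Fgfr4, which had none, are shown as an example of each kind of receptor, and no relation of sequence to signal was tested. RefSeq places them at chr7:130266759-130267058 on the minus strand and chr13:55152568-55152867 on the plus strand (GRCm38.p6). Capitals again mark CpG.
Fgfr2: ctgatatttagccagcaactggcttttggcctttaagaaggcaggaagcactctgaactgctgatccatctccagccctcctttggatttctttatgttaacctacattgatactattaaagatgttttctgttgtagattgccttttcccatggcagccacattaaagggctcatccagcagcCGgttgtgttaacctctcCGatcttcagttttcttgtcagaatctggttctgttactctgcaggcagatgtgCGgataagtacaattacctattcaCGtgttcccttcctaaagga
Fgfr4: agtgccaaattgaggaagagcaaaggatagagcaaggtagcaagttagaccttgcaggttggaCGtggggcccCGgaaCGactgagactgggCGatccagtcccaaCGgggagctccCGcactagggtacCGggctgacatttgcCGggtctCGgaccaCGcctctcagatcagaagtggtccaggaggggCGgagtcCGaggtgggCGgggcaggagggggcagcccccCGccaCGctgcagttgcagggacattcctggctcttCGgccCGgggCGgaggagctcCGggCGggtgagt
The Fgfr2 window holds 4 CpG, with fewer in 31.4% of promoters, no GC box and 1 E-box. The Fgfr4 window holds 20 CpG, with fewer in 73.5%, and 4 GC boxes. Fgfr3, which was also above control, has windows with 26 and 30 CpG and with 4 and 2 GC boxes. The CpG contrast of the windows shown is thus not one between receptors above and not above control. The table gives 1 start for Fgfr2 and 1 for Fgfr4, and transcripts from other starts were not examined.

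Slc20a1 encodes PiT-1, the sodium-coupled phosphate importer most studied in calcifying smooth muscle. All 3 of its probe sets had the higher mean in klotho-deficient roots, and none passed. Probe set 1448568_a_at read 1645.1, 3097.3 and 3408.7 in klotho-deficient roots, against 1559.1, 1436.8 and 2109.4 in wild type. Klotho-deficient replicates 2 and 3 were above the wild-type arrays, and replicate 1 lay among them. The difference was 0.63 ± 0.35 (95% interval -0.22 to 1.47; limma adjusted p = 0.943).

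Klotho-deficient replicates 2 and 3 were also the arrays without Y-linked transcripts. With the mean log2 level of Y-linked genes in the fit, the Slc20a1 difference at 1448568_a_at was -0.028 ± 0.33, against 0.63 without it. No wild-type array lacked these transcripts, so on those arrays sex and genotype cannot be told apart. The fit with this level thus rests mainly on klotho-deficient replicate 1 against the wild-type arrays. Leaving out klotho-deficient replicate 1 gave 0.95 ± 0.29 (limma unadjusted p = 0.0189, adjusted p = 0.887).

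The dimmer Slc20a1 probe sets were highest on klotho-deficient replicate 2. Probe set 1438824_at read 476, 651.5 and 387.9 in klotho-deficient roots, against 415, 373.4 and 337.9 in wild type (0.40 ± 0.26). Probe set 1446441_at read 373.2, 803 and 432 in klotho-deficient roots, against 362.8, 493.6 and 204.5 in wild type (0.61 ± 0.44). With the Y-linked level in the fit these differences were 0.38 and 0.27. Without klotho-deficient replicate 2 they were 0.20 and 0.27, and 1446441_at was 0.26 without wild-type replicate 3.

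**Figure D2:**
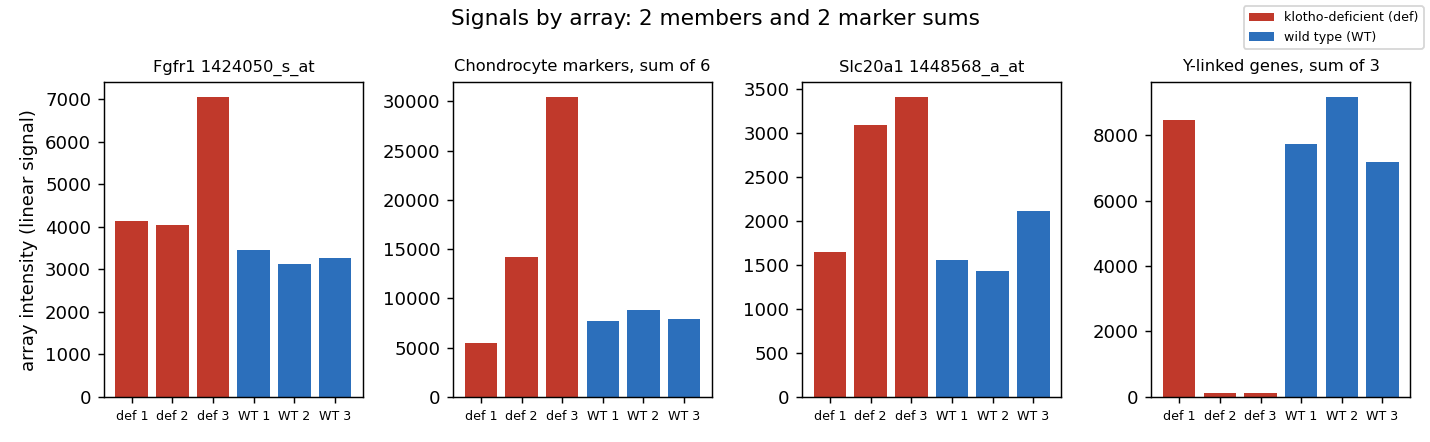
Linear array intensity on each klotho-deficient (def, red) and wild-type (WT, blue) array of Fgfr1 probe set 1424050_s_at, of the sum of 6 chondrocyte markers, of Slc20a1 probe set 1448568_a_at and of the sum of 3 Y-linked genes. Fgfr1 and the chondrocyte sum are both highest on def 3, at 7050.8 and 30402.7. On def 1 the chondrocyte sum is lowest, at 5418.4, while Fgfr1, at 4141.6, is above every WT array. Slc20a1 is highest on def 2 and def 3, the arrays with Y-linked sums of 115 and 124.2.

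Slc20a2 encodes PiT-2, the second sodium-coupled importer, whose loss in people and mice gives calcification of brain vessels. Probe set 1434235_at read 1306.1, 1150.6 and 1888.2 in klotho-deficient roots, against 1549.9, 1552.9 and 1200.2 in wild type. The genotypes overlapped, with a difference of -0.01 ± 0.27 and a 95% interval of -0.66 to 0.64. Probe set 1451768_a_at read 1042.1, 1038.5 and 836.1 in klotho-deficient roots, against 1124.8, 1109.7 and 627.4 in wild type (0.07 ± 0.30, 95% interval -0.66 to 0.79). These intervals do not exclude changes to 1.56-fold and 1.73-fold at their upper ends.

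Xpr1 encodes the phosphate exporter. All 7 of its probe sets had the lower mean in klotho-deficient roots, by 0.14 to 0.43 on the log2 scale, and all overlapped between genotypes. Probe set 1426992_at read 6727.6, 4537.9 and 5644.3 in klotho-deficient roots, against 7627.6, 7569 and 3986.5 in wild type (-0.14 ± 0.33; limma adjusted p = 0.986). Probe set 1450130_at had the largest difference, with 4698.8, 2161.4 and 4020.7 in klotho-deficient roots, against 5955.7, 5440.5 and 3110.6 in wild type (-0.43 ± 0.40; adjusted p = 0.962). The 7 probe sets report 1 transcript pool on the same arrays, and 3 come from 1 sequence accession, so they are not separate evidence of a direction.

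Wild-type replicate 3 had the lowest wild-type signal at every Xpr1 probe set. That array also had the highest 3′ to 5′ Gapdh ratio, 7.18, and the lowest wild-type signal at both Slc20a2 probe sets. Averaged over the 7 probe sets, as log2 deviations from each one's mean, Xpr1 was at -0.401 on wild-type replicate 3. It was at -0.406 on klotho-deficient replicate 3, which had the lowest Gapdh ratio, 3.23. This average was -0.271 on klotho-deficient replicate 2 and positive on the remaining arrays. The Xpr1 probe sets differed on klotho-deficient replicate 3, as given below. Without wild-type replicate 3, Xpr1 differences ran from -0.37 to -0.73, with unadjusted p of 0.062 at 1426993_at and 0.0692 at 1426053_a_at in limma. With the Y-linked level in the fit, 6 of the 7 Xpr1 differences became positive, though that fit rests mainly on klotho-deficient replicate 1. The part of RNA quality or sex in the Xpr1 values was not tested beyond these fits, and that of cell content was not tested.

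The Xpr1 probe sets did not all follow the same arrays. Probe sets 1437958_at and 1444168_at were low on klotho-deficient replicate 3, at 412.7 and 784.2 there, against 1235.3 and 1220.8 and 2518.4 and 2142 on klotho-deficient replicates 1 and 2. Over the 6 arrays they had r = 0.948 with each other. The other 5 had r of 0.736 to 0.996 among themselves, and were lowest among klotho-deficient arrays on replicate 2, other than 1426053_a_at. Between these 5 and the pair r ran from 0.0871 to 0.756, the highest being that of 1426053_a_at with 1444168_at, so the probe sets do not separate cleanly.

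**Figure D3:**
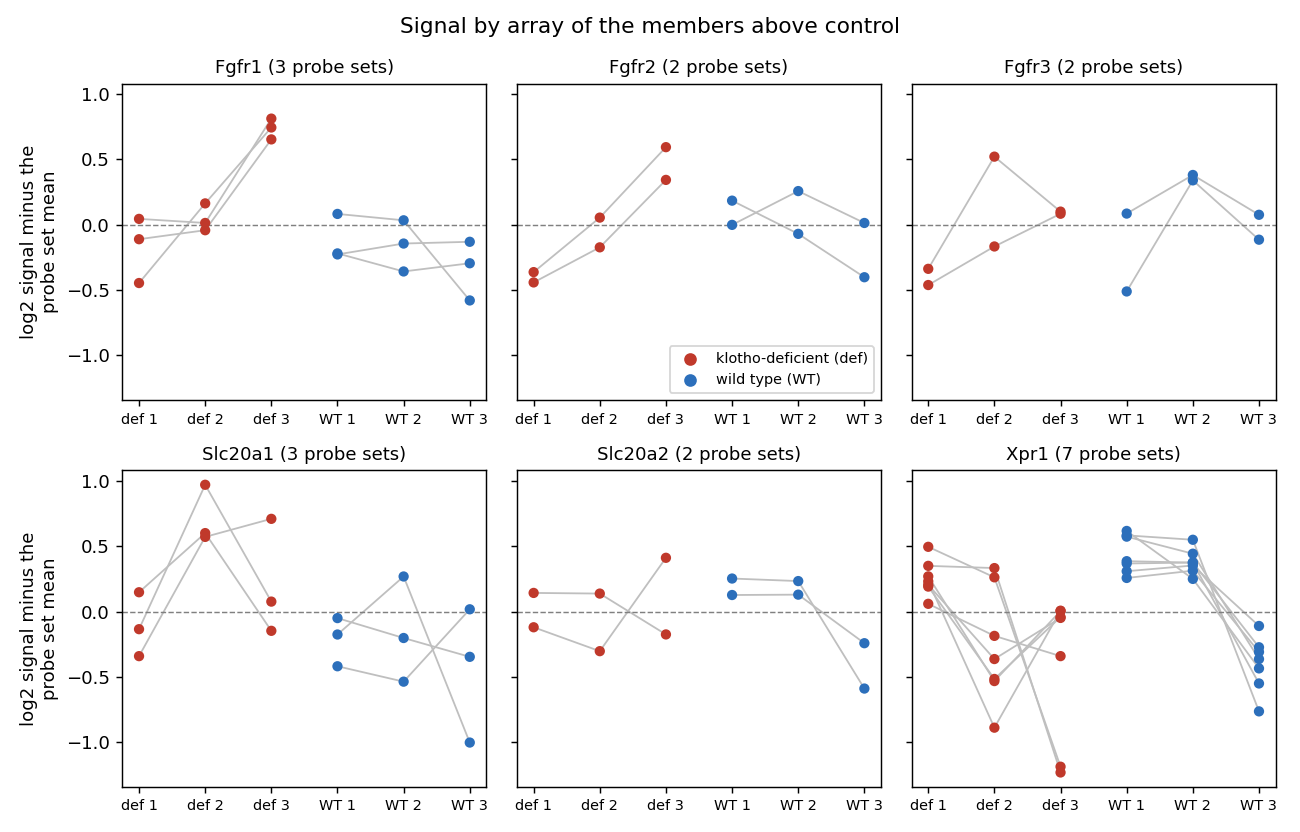
Log2 signal of each probe set above control minus its own mean over the arrays, for 6 genes, on klotho-deficient (def, red) and wild-type (WT, blue) arrays; grey lines join the arrays of 1 probe set. Fgfr1 is highest on def 3 at all 3 probe sets, and Xpr1 is low on WT 3 at all 7.

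**Figure D4:**
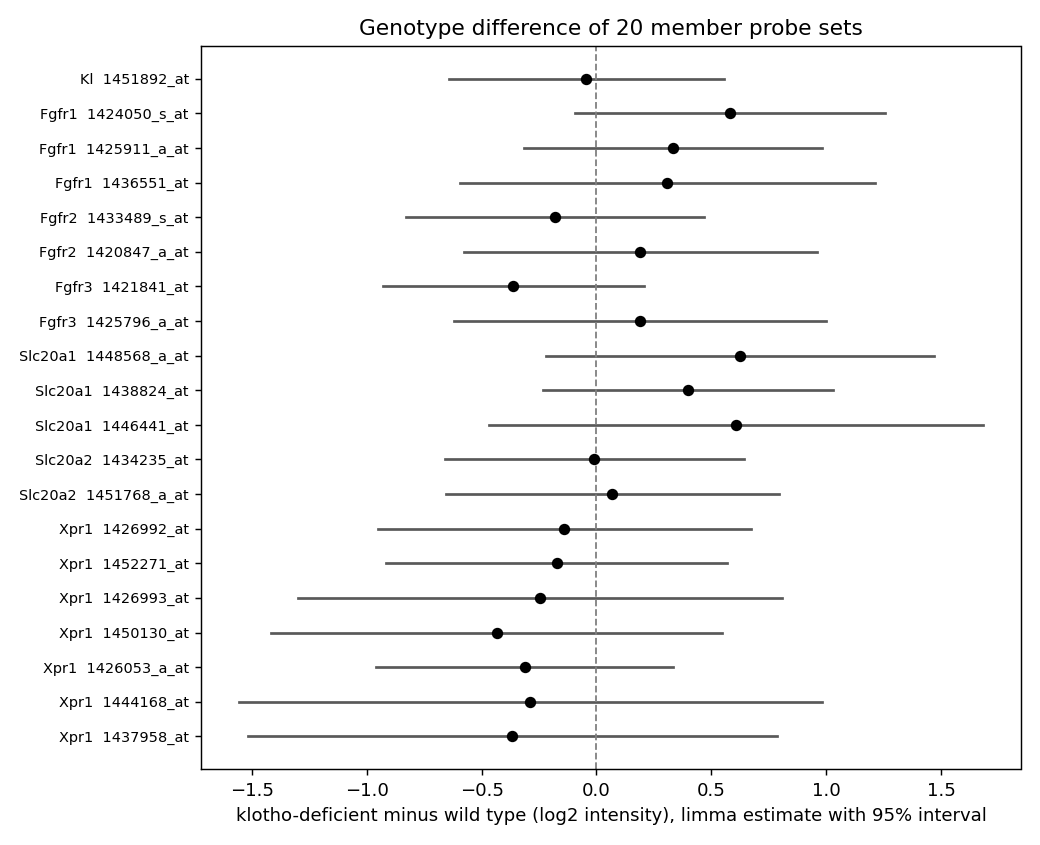
Klotho-deficient minus wild-type difference in log2 intensity (points) with limma's 95% interval (lines) for the 19 probe sets above control on all arrays and for Kl 1451892_at. Every interval includes 0, with Fgfr1 1424050_s_at nearest to leaving it at -0.09 to 1.26.

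Genes that work with these receptors and transporters gave no call either. Of 68 other pathway genes measured, 0 passed in limma over all probe sets, and by limma's unadjusted p under 0.05 there was 1, Galnt3. Galnt3 encodes the enzyme that glycosylates FGF23 and protects it from cleavage, and it is named after its values were seen. It read 255.8, 458.4 and 425 in klotho-deficient roots, against 114.2, 243.3 and 132.9 in wild type, with 2 wild-type arrays under the highest control. No fold is given against wild-type signals at the control level (limma unadjusted p = 0.0169, adjusted p = 0.834). Among 18193 genes by 1 probe set each, 66.8% were above the highest control on all arrays. Of the 18193, 0% passed in either direction, and 2.87% were higher and 2.63% lower at a limma unadjusted p under 0.05. In each list below, the genes given with values were picked by smallest p, which favours genes without overlap. Of all probe sets, 11.7% did not overlap between genotypes.

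Of 17 other FGF ligands, 7 were above the highest control on all arrays and 6 on none, among them Fgf8, Fgf10 and Fgf15. The median difference of the 7 was -0.03, against -0.01 over 12150 genes above control. Fgf9, a ligand of mesothelial and mesenchymal tissue, read 548.6, 313.4 and 600.6 in klotho-deficient roots, against 698, 907.8 and 625.7 in wild type, without overlap (-0.65 ± 0.32, limma adjusted p = 0.936). Fgf2, the basic FGF of vessel walls, had means of 3968 ± 620 in klotho-deficient roots, against 3098 ± 682 in wild type (SD, n = 3 each). Fgf18, a ligand for Fgfr3 in cartilage, had means of 1276 ± 314 in klotho-deficient roots, against 1606 ± 208 in wild type.

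Of 15 measured receptor partners and adaptors all 15 were above control, 7 with the higher and 8 with the lower klotho-deficient mean (median -0.02). Flrt3, a membrane protein that binds FGF receptors, had means of 783 ± 109 in klotho-deficient roots, against 542 ± 121 in wild type, without overlap (0.55 ± 0.26). Fgfbp3, an FGF carrier, had means of 852 ± 67.6 in klotho-deficient roots, against 1066 ± 94.4 in wild type, also without overlap. Gpc1, a heparan sulfate proteoglycan, read 487.9, 486.5 and 1457.3 in klotho-deficient roots, against 397.7, 440 and 456.9 in wild type. The genotypes did not overlap here either, but the size of the klotho-deficient mean rests on replicate 3.

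The 12 feedback genes of FGF and ERK signalling were all above control, 8 with the higher and 4 with the lower klotho-deficient mean (median 0.17). Dusp4, an ERK phosphatase, had means of 504 ± 59.3 in klotho-deficient roots, against 390 ± 41 in wild type, without overlap (0.37 ± 0.21). Il17rd, an inhibitor of FGF receptors, had means of 2282 ± 832 in klotho-deficient roots, against 3102 ± 263 in wild type (-0.50 ± 0.31). Dusp5, another ERK phosphatase, had means of 939 ± 92.7 in klotho-deficient roots, against 761 ± 125 in wild type.

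Of 15 measured genes of FGF23 processing and phosphate regulation, 9 were above control, 5 with the higher and 4 with the lower klotho-deficient mean. Ank, a pyrophosphate transporter, read 2570.9, 4180.6 and 11037.9 in klotho-deficient roots, against 2353, 3120.9 and 2345 in wild type, with the highest value again on klotho-deficient replicate 3. Phex, an endopeptidase whose loss raises FGF23, had means of 496 ± 188 in klotho-deficient roots, against 767 ± 325 in wild type. Alpl, the alkaline phosphatase of mineralising cells, had means of 1121 ± 437 in klotho-deficient roots, against 817 ± 156 in wild type.

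Of 6 other phosphate carriers, 3 were above control on all arrays. Slc34a2, a sodium-phosphate carrier of epithelia, was above it on none, and the kidney carrier Slc34a1 on 1, wild-type replicate 3. Slc34a3, another kidney carrier, was above it on 5. Slc37a4, the glucose 6-phosphate carrier, had means of 1147 ± 145 in klotho-deficient roots, against 989 ± 85.3 in wild type. Slc25a3, the mitochondrial phosphate carrier, had means of 14383 ± 3323 in klotho-deficient roots, against 12704 ± 1524 in wild type, and Slc37a2 had means of 292 ± 40.7 in klotho-deficient roots, against 295 ± 57.3 in wild type. Of the proteases that release klotho from the membrane, Adam17 read 3551.6, 3189.3 and 3733.8 in klotho-deficient roots, against 4285.4, 4720.1 and 4473.9 in wild type, without overlap (-0.37 ± 0.19, limma adjusted p = 0.943). Bace1 had means of 3632 ± 654 in klotho-deficient roots, against 3076 ± 599 in wild type, and Bace1 and Adam10 overlapped between genotypes.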

How the data were processed

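The authors deposited 1 linear intensity for each of 45101 probe sets on 6 arrays; the submitters' processing notes name RMA, without a version. RMA commonly gives log2 values, whereas the deposited values are linear, and no source here records the step between. The 2% trimmed mean was 1500.01 on every array, while the median ran from 425.6 to 556.6. The deposited intensities thus share a scale but not a median. Whether they are RMA output, and what the lowest intensities stand for, is unknown. RNA was extracted with Trizol and amplified with a NuGEN kit, per the labels' protocols. Intensities were log2-transformed with no offset. The 64 control probe sets were left out, and 45037 were fitted with limma 3.58.1 in R 4.3.3 (lmFit, eBayes, two-sided, Benjamini-Hochberg over all probe sets, 4 residual and 2.2 prior degrees of freedom). The test was checked on simulated data. Differences are klotho-deficient minus wild type ± SE; the number of arrays limits precision. Symbols came from the platform annotation and the RefSeq table of GRCm38.p6. The members and lists were chosen with earlier results of these data known. Named genes were the 10 members, the 3 of smallest p above control in each pathway list, the 3 most like the leading member, and markers. Lists were described with 1 probe set per gene, that of highest mean. Frs2, Enpp1, Lctl, Gcm2 and Ddx3y are not analysed here. Alternatives were a replicate block, other scalings, an offset of 100, a filter on dim probe sets, another variance prior, array weights, a fit over genes, a Y-linked covariate and each array left out. Plots used matplotlib 3.10.9 (Python 3.11.15).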

Additional observations from a re-analysis of the deposited data

How the results depend on the processing

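No member or other pathway gene passed the adjusted threshold under any of the 9 other settings or with any array left out, while over all probe sets 1 higher call appeared with an offset of 100, 1 with dim probe sets left out and 2 with a trended and robust prior. The count of member probe sets higher at an unadjusted p under 0.05, which was 2, was 0 with the replicate block, with dim probe sets left out and with the Y-linked covariate, and 1 with quantile normalization, median centring, the trended prior and 1 probe set per gene. These were not always the same probe sets: in limma, Fgfr1 1424050_s_at was among them with the trended prior (unadjusted p = 0.0329, adjusted p = 0.849) and an offset of 100 (unadjusted p = 0.0463, adjusted p = 0.813), and Slc20a1 1448568_a_at without klotho-deficient replicate 1 (unadjusted p = 0.0189, adjusted p = 0.887). The count lower, which was 0, was 1 with the replicate block and 3 with array weights, Fgfr3 1421841_at among the latter (limma unadjusted p = 0.0328, adjusted p = 0.421). Leaving out an array gave 0 to 2 higher and 0 to 1 lower. The labels share replicate numbers but name no pairing. Deviations of same-numbered arrays correlated at 0.228, -0.01 and 0.185 for replicates 1, 2 and 3. Those of differently numbered arrays ran from -0.237 to 0.0674. In this balanced design a block cannot change a difference, so the fit with it does not show whether the arrays are paired. With the block, Fgfr1 1424050_s_at stayed at 0.58 (limma unadjusted p = 0.095). Member probe sets above control on all arrays numbered 19 against each array's own controls or their highest value, and 20 against the 95th percentile of the controls. The probe set gained was Kl 1451892_at, whose lowest signal was 138.3, against 116.56 for that percentile. The level call of Kl thus depends on the cut-off.

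Signs turned with array weights for Fgfr1 1436551_at (-0.16), Fgfr2 1420847_a_at (-0.17), Fgfr3 1425796_a_at (-0.0012) and Slc20a2 1451768_a_at (-0.029). With the Y-linked covariate they turned for Fgfr1 1436551_at (-0.24), Fgfr2 1420847_a_at (-0.23), Fgfr3 1425796_a_at (-0.20), Slc20a1 1448568_a_at (-0.028) and Xpr1 1426992_at (0.16), 1452271_at (0.19), 1426993_at (0.11), 1450130_at (0.018), 1444168_at (0.39) and 1437958_at (0.20). Leaving out an array turned the sign of Kl 1451892_at (-0.19 to 0.14), Fgfr2 1420847_a_at (-0.058 to 0.42), Fgfr3 1425796_a_at (-0.023 to 0.41), Slc20a2 1434235_at (-0.22 to 0.14) and 1451768_a_at (-0.21 to 0.21), and Xpr1 1426992_at (-0.45 to 0.019), 1452271_at (-0.37 to 0.050), 1444168_at (-0.61 to 0.23) and 1437958_at (-0.63 to 0.16). The fit with the Y-linked covariate rests mainly on klotho-deficient replicate 1 against wild type, and the cause of these turns was not tested. Signals near or under 161.8 give no usable fold for Klb, Fgf23 and Fgfr4, and the Kl difference sets no limit on its change.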

Other observations

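Klotho-deficient replicate 3 held the highest of the 6 signals for 10 of the 12 feedback genes of FGF and ERK signalling (83.3%), where it held the highest for 25.7% of the 12150 genes above control. Etv5, a transcription factor induced by FGF signalling, read 1080.3, 2443.5 and 5496.9 in klotho-deficient roots, against 1723.3, 1902.2 and 1077.5 in wild type. Spred2, an inhibitor of the ERK pathway, read 2239.3, 2288.4 and 5438.5 in klotho-deficient roots, against 2736.4, 3490.8 and 2724.8 in wild type. Spry2, another such inhibitor, read 2591.7, 2664.5 and 4460.3 in klotho-deficient roots, against 2653.2 to 2766.8 in wild type. The same array was highest for 7 of 15 receptor partners and adaptors (46.7%) and for 7 of the 19 member probe sets above control (36.8%, against 20.9% of all probe sets above control). These genes were singled out after their values were seen, this is 1 pool of 3 mice, and the pattern does not separate the genotypes.

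Among wild-type arrays, replicate 3 was lowest of all 6 for 7 of the 19 member probe sets (36.8%, against 23.2% of all probe sets above control), and highest for 0 of them, against 19.7%.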
